A study of Homo sapiens with 20 samples.

Results

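The genes described here are 9 transcription factors and cofactors at the core of the erythroid programme: GATA1, KLF1, TAL1, LMO2, LDB1, NFE2, ZFPM1, GFI1B and FOXO3. They were chosen by name, with earlier results of these data known, and they are 9 of the 46425 gene symbols and 65 of the 170322 transcripts measured. Their values were followed on 10 days of erythroid differentiation of HUDEP-2 cells. All 9 passed the filter on low counts, and the lowest count of any of them in any library was 1041 (LMO2).

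HUDEP-2 cells are human erythroid progenitors, derived from umbilical cord blood and immortalized with a doxycycline-dependent transgene of papillomavirus E6 and E7. The cells were wild type. On day 0 they were in expansion medium (StemSpan SFEM with erythropoietin, SCF and doxycycline, and per the study's methods dexamethasone). On the later days they were in IMDM with holo-transferrin, AB human serum, heparin, insulin, L-glutamine, erythropoietin, SCF and doxycycline, from which SCF was left out on day 6 and doxycycline on day 8. The study places day 0 at the pro-erythroblast (Pro-E), days 4 to 6 at the early and late basophilic (EB/LB), day 8 at the polychromatic (Poly) and day 12 at the orthochromatic and reticulocyte (Ortho) stage. No day has an undifferentiated control culture beside it, so time in culture, medium and stage cannot be told apart. All libraries come from 1 cell line.

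Each of the 10 days had 2 libraries of poly(A)-selected mRNA, 20 in all. A table of all days held 1 library of each day, and separate tables of days 0 to 6, of days 7 and 8 and of day 12 held the other. Where 2 values are given for a day, the library of the all-days table comes first and that of the separate-days tables second. The median library held 61806912 counts, and the range was 52131713 to 70358198. Between the 2 libraries of a day, 65.3% to 78.0% of genes differed by more than sampling noise, so they were not 1 library deposited more than once. The study calls the libraries of days 0 and 8 biological replicates. No label says whether the libraries of a day came from separate cultures, and p-values then measure only the spread between these libraries, part of which may be technical. The separate-days libraries of days 7 and 8 stood apart: ribosomal RNA genes took 18.5% and 17.5% of their counts, against 1.03% to 4.08% in the other 18 libraries. The 8 erythroid markers were detected in every library. Their summed level stood at 32540 and 32150 TPM on day 0, at 256000 and 300500 TPM on day 8, and at 612300 and 561400 TPM on day 12. TPM is a share of all transcripts, scaled for transcript length.

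GATA1 is the zinc-finger factor that binds GATA motifs in most erythroid genes, and ZFPM1 (FOG1) is the cofactor that binds GATA1 itself. TAL1 (SCL), a basic helix-loop-helix factor, joins GATA1 through the bridging protein LMO2 and the dimerizing adaptor LDB1, and this complex sits on enhancers of erythroid genes. KLF1 binds CACCC boxes, as in the promoter of the adult beta-globin gene, and NFE2 forms with small MAF proteins the NF-E2 complex that occupies the globin locus control region. GFI1B is a repressor that recruits the demethylase KDM1A, and FOXO3 is a forkhead factor known in erythroblasts for genes of oxidative defence, autophagy and the removal of mitochondria. In progenitors GATA2 occupies many of the sites that GATA1 takes over later, an exchange known as the GATA switch.

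On the TPM scale KLF1 was the most abundant of the 9 factors on all 3 of the days 0, 8 and 12. On day 0 the order of mean levels was KLF1 (488 ± 38.2 TPM, SD, n = 2), GFI1B (368 ± 33.8), LMO2 (236 ± 9.20), LDB1 (220 ± 10.2), GATA1 (213 ± 5.39), NFE2 (200 ± 43.6), TAL1 (71.9 ± 12.4), FOXO3 (25.9 ± 7.29) and ZFPM1 (10.1 ± 2.73). The libraries of LDB1 overlapped those of GATA1, and those of GATA1 overlapped those of NFE2. On day 12 the order was KLF1 (556 ± 98.2 TPM), NFE2 (402 ± 21.3), FOXO3 (278 ± 107), GATA1 (122 ± 3.82), TAL1 (119 ± 19.8), GFI1B (91.3 ± 15.3), LDB1 (30.2 ± 4.51), LMO2 (11.0 ± 2.35) and ZFPM1 (8.55 ± 1.71). Here GATA1 overlapped TAL1, and LMO2 overlapped ZFPM1. FOXO3 thus moved from the eighth to the third place, and LMO2 from the third to the eighth. The other neighbours in these orders did not overlap, with only 2 libraries a day.

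**Figure D1:**
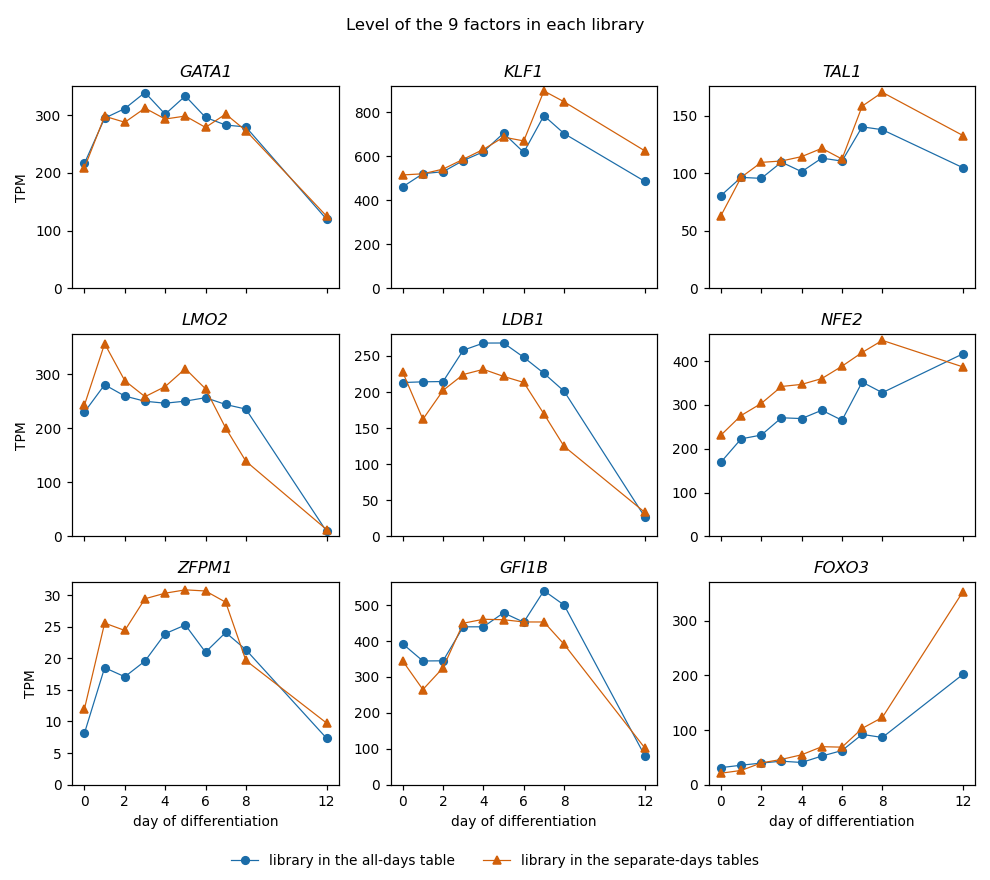
Level of each of the 9 factors in TPM (y axis, from 0, own range per gene) against the day of differentiation (x axis). Each point is 1 library, circles for the all-days table and triangles for the separate-days tables. FOXO3 is highest on day 12 at 202 and 354 TPM, and LMO2 is lowest there at 9.35 and 12.7 TPM.

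The scale bears on every comparison with day 12. The 10 globin genes took 0.819% and 0.859% of counts on day 0, 8.49% and 9.85% on day 8, and 33.7% and 28.2% on day 12, and a TPM value is a share of everything in the library, globin included. The tests used counts scaled to the TMM-normalized library size (normalized CPM), which sets the bulk of genes equal between libraries. Between day 8 and day 12 the median of all 16784 genes tested moved by -0.20 on the TMM scale and by -0.68 on the log2(TPM + 1) scale. On the log2(TPM + 0.1) scale it moved by -1.20, since the added constant shrinks changes of genes with low TPM. Medians of all genes on the log2(TPM + 1) scale thus understate the change of scale. The place of a factor or list among all genes is not read from them. In log2 ratios of day means, the scales differed by 1.33 (ZFPM1) to 1.57 (TAL1) over the factors. For GATA1 the difference was 1.45. As log2 ratios, its day 12 mean was 0.27 above day 8 in normalized CPM and 1.18 below it (-1.18) in TPM. The same ratio was 0.96 and -0.49 for KLF1, 1.19 and -0.38 for TAL1, and 0.06 and -1.28 for ZFPM1. On both scales FOXO3 was higher on day 12 and LMO2, LDB1 and GFI1B were lower, as the plot of ratios on both scales shows. NFE2 was at 1.52 on the normalized CPM scale and 0.07 on the TPM scale. These are bulk libraries, in which fewer cells of a type and less RNA per cell cannot be told apart.

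**Figure D2:**
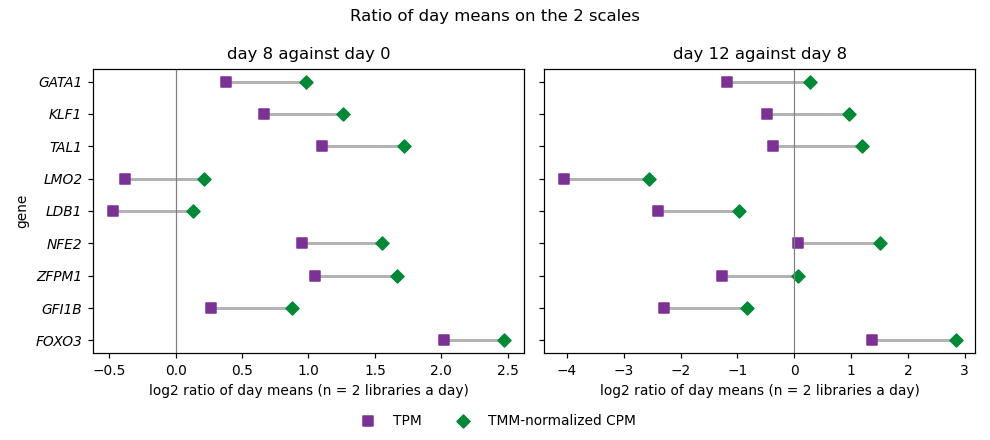
Log2 ratio of day means (x axis, n = 2 libraries a day) for each factor (y axis), day 8 against day 0 on the left and day 12 against day 8 on the right, with squares for TPM and diamonds for TMM-normalized CPM. On day 12 against day 8 GATA1, KLF1, TAL1 and ZFPM1 are below 0 in TPM and above 0 in normalized CPM, while FOXO3 is above 0 and LMO2, LDB1 and GFI1B are below 0 on both scales.

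The days were compared with edgeR's quasi-likelihood test in 1 fit of all 20 libraries, with Benjamini-Hochberg adjustment over 16784 genes and a threshold of 0.05. The 5 comparisons share libraries of days 0, 4 to 6 and 8. After 1 day in differentiation medium none of the 9 factors passed the test, where 0.393% of all genes did. At an unadjusted p under 0.05, 4 of the 9 and 1538 of all genes passed (GATA1, TAL1, LMO2 and ZFPM1), DESeq2 called 2 factors, and limma on log2(TPM + 1) called 1. With a term for the table set as a block, GATA1 (0.56, adjusted p = 0.0360) and ZFPM1 (1.26, adjusted p = 0.0011) rose on day 1, and 442 genes were called in place of 66. At the EB/LB stage (days 4 to 6 against day 0), 6 of the 9 rose and none fell, where 16.6% of all genes passed (7.38% higher, 9.22% lower). The 6 were GATA1, KLF1, TAL1, ZFPM1, GFI1B and FOXO3, with a median log2 fold change over the 9 of 0.65 against -0.01 over all genes. NFE2 (0.83, adjusted p = 0.0559) did not pass, and rose with the table set as a block (0.83, adjusted p = 0.00392), while GFI1B did not pass with limma on log2(TPM + 1) (0.31, adjusted p = 0.118). Without the separate-days library of day 0, 2 of the 9 passed (GATA1 and ZFPM1), and 959 genes in place of 2785. The changes of the other 4 were then 0.70 for KLF1, 0.67 for TAL1, 0.43 for GFI1B and 1.01 for FOXO3, against 0.58, 0.80, 0.48 and 1.20 with all libraries. KLF1 (0.47) did not pass without the all-days library of day 0 either.

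At the Poly stage (day 8 against days 4 to 6), 6 of the 9 rose and none fell (GATA1, KLF1, TAL1, NFE2, GFI1B and FOXO3), where 22.7% of all genes passed (11.9% higher, 10.8% lower). Without the separate-days library of day 8, which carried 17.5% ribosomal RNA, none of the 9 passed and 464 genes did in place of 3816. Day 8 then has a lone library that is assumed to vary like the other days. The 6 factors kept their direction there, at 0.21 for GATA1, 0.40 for KLF1, 0.59 for TAL1, 0.34 for NFE2, 0.44 for GFI1B and 0.83 for FOXO3, against 0.33, 0.70, 0.95, 0.75, 0.40 and 1.32 with both libraries. With both libraries and TMM computed without ribosomal RNA genes, the 6 factors kept their calls. Any part of ribosomal RNA beyond this scaling was not tested. The calls of NFE2 (adjusted p = 0.0482) and GATA1 (adjusted p = 0.0383) lay near the threshold and were lost in 16 and 13 of the 20 omissions of a single library, with only the days compared and with curated transcripts alone. The direction also depended on the scale. With limma on log2(TPM + 1), TAL1 and FOXO3 rose in this step, LMO2 fell by 0.56 (adjusted p = 0.0276) and LDB1 fell by 0.60 (adjusted p = 0.0212), while GATA1 (-0.12) and GFI1B (-0.048) lay below 0 and did not pass, and the median of all genes was -0.23. At the Ortho stage (day 12 against day 8), 4 of the 9 rose (KLF1, TAL1, NFE2 and FOXO3) and 3 fell (LMO2, LDB1 and GFI1B), where 57.2% of all genes passed (23.8% higher, 33.4% lower), and the tally depended on the scale. With limma on log2(TPM + 1), 1 of the 9 rose (FOXO3) and 7 fell, among them GATA1, KLF1, TAL1 and ZFPM1, and NFE2 did not pass. Over the longer step from day 0 to day 8, 7 of the 9 rose, all but LMO2 and LDB1, where 37.1% of all genes passed (17.7% higher, 19.4% lower). The median over the 9 was 1.28 against 0 over all genes, and 7 of the 9 passed with each library left out in turn. Of the genes called higher or lower, 66.7%, 44.5%, 52.4%, 41.6% and 47.7% were higher in these 5 comparisons (day 1 against day 0, days 4 to 6 against day 0, day 8 against days 4 to 6, day 12 against day 8, and day 8 against day 0), and 43.5%, 24.4%, 11.8%, 13.5% and 15.5% with limma on log2(TPM + 1).

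**Figure D3:**
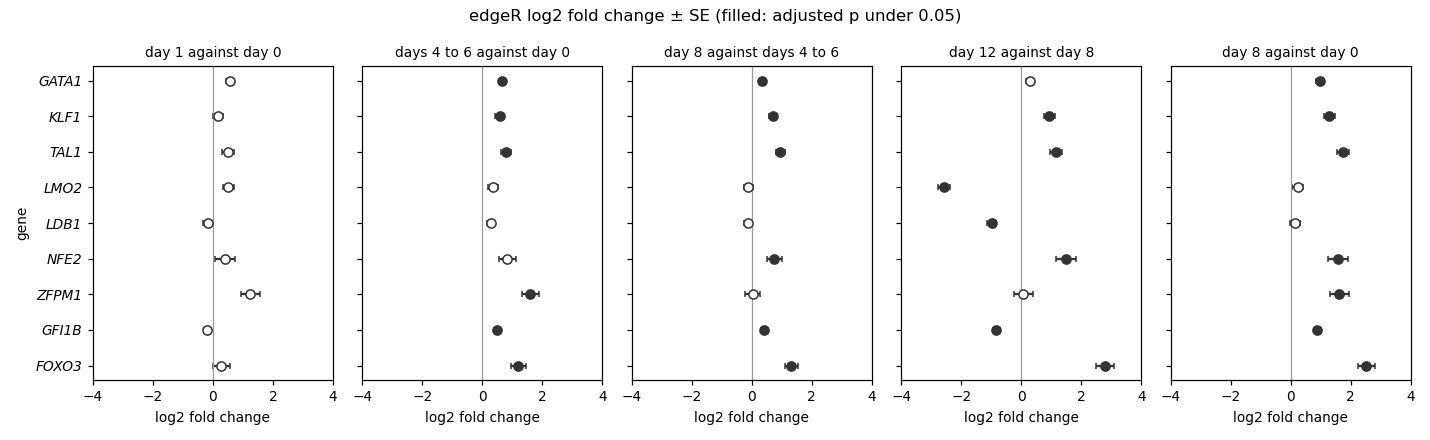
Log2 fold change from edgeR (x axis) of each factor (y axis) in the 5 comparisons, with bars of 1 SE and filled points where the adjusted p was under 0.05. Between days 8 and 12 the factors spread from -2.58 for LMO2 to 2.79 for FOXO3; on the TPM scale GATA1, KLF1, TAL1 and ZFPM1 would lie on the other side of 0 in that comparison.

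RefSeq promoter sequences (GRCh38.p14, 250 bases before to 50 after the start) were matched for 7 of the 9 genes, in 12 entries. Those of GATA1 and KLF1 and 1 of the 2 each of TAL1 and GFI1B are shown because these 4 genes rose together from day 0 to day 8 and are known as targets of GATA1 themselves. FOXO3 and ZFPM1 also rose in that step and had entries, which held no GATA hexamer and are not shown. Capitals mark GATA hexamers (AGATAA and AGATAG or, with a leading T, TGATAA and TGATAG) and CACCC-type boxes (CCNCNCCC), searched on both strands, with no overlap between the 2 motifs in these 4 windows. Positions are counted from the transcription start. The sequences run 5′ to 3′ on the strand of the gene, which is plus for GATA1 (chrX:48786340-48786639) and GFI1B (chr9:132978444-132978743) and minus for KLF1 (chr19:12887152-12887451) and TAL1 (chr1:47232286-47232585).
GATA1: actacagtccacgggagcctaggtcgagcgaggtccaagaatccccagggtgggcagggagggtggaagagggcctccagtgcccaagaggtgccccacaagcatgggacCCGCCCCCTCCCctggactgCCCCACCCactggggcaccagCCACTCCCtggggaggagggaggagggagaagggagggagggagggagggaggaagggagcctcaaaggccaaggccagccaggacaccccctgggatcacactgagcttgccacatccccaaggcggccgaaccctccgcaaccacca
KLF1: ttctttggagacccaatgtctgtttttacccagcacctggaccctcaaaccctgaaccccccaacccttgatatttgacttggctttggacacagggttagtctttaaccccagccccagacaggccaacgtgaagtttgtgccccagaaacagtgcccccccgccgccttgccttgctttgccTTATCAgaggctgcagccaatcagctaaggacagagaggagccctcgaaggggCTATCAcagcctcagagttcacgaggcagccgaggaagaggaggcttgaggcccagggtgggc
TAL1: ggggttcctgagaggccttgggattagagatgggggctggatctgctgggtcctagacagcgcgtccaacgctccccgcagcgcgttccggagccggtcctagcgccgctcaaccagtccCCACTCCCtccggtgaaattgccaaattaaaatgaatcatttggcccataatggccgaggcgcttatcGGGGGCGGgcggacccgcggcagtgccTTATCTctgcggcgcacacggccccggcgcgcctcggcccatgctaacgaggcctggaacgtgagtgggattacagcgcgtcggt
GFI1B: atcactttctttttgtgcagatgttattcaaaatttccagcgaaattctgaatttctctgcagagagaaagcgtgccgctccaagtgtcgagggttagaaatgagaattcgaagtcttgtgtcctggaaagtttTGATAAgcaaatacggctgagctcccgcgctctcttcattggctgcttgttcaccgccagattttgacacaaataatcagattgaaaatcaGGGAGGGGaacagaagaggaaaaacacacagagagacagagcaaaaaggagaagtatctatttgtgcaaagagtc

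The GATA1 window held 4 CACCC-type boxes and no GATA hexamer, and the KLF1 window held 2 GATA hexamers, at -66 and -13, and no such box. The TAL1 window held 1 GATA hexamer at -35 with boxes at -130 and -62, and the GFI1B window held 1 GATA hexamer at -116 with a box at -25. An E-box (CANNTG, the kind of site TAL1 binds with its partner) lay at -217 in KLF1 and at -93 in TAL1, and GFI1B had 2. Of all 35116 promoter windows of the same length, 25.0% held a GATA hexamer, 56.2% a CACCC-type box and 68.7% an E-box. The other TAL1 window (chr1:47231666-47231965) held none of these 3 motifs, and the other GFI1B window (chr9:132945281-132945580), at a start with little or no TPM, held 1 GATA hexamer at 3 and 1 E-box at -80. The TAL1 window shown is counted from the start of NM_001290403, which held 5.42% ± 2.02 (SD, n = 2) of TAL1 TPM on day 8, so most TAL1 TPM is assigned to transcripts with other starts. Over all 12 entries 4 held a GATA hexamer, 8 a CACCC-type box and 4 an E-box, and those of FOXO3, LDB1 and ZFPM1 held no GATA hexamer. A match is a description of the letters and not of binding.

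GATA1 (gene 2623, chrX:48786540-48794311 in hg38) stood at 217 and 209 TPM on day 0 and at 295 and 298 TPM on day 1. It was highest on day 3 in both sets of libraries, at 339 and 312 TPM, and stood at 280 and 273 TPM on day 8 and at 120 and 125 TPM on day 12. The 2 libraries lay close together on every one of these days. In normalized CPM it went from 124 and 126 on day 0 to 227 and 268 on day 8, and was 335 and 265 on day 12, where the days overlapped. It rose from day 0 to days 4 to 6 (log2 fold change 0.65 ± 0.11, SE, adjusted p = 0.00154) and to day 8 (0.99 ± 0.13, adjusted p = 1.05e-04), by 1.98-fold. The change of 0.28 ± 0.13 from day 8 to day 12 did not pass (adjusted p = 0.0880), and on the TPM scale it was -1.17 and passed.

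GATA2, the progenitor factor that GATA1 displaces, stood at 131 and 211 TPM on day 0, at 20.8 and 23.1 TPM on day 8 and at 5.39 and 7.33 TPM on day 12. It fell from day 0 to days 4 to 6 by 1.09 on the log2 scale (SE 0.29, adjusted p = 0.0214) and to day 8 by 2.32 (SE 0.40, adjusted p = 6.24e-04). The ratio of GATA1 to GATA2 in TPM, which does not depend on the scale of a library, was 1.66 and 0.990 on day 0, 13.5 and 11.8 on day 8, and 22.2 and 17.1 on day 12. It was thus higher on day 8 than on day 0, and on day 12 than on day 8, in each set of libraries.

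ZFPM1 (gene 161882, chr16:88451782-88537031), the cofactor of GATA1, was the lowest of the 9 in TPM. It stood at 8.15 and 12.01 TPM on day 0, at 18.5 and 25.6 TPM on day 1 and at 25.3 and 30.9 TPM on day 5, its highest day in both sets. On day 8 it was at 21.4 and 19.7 TPM, and on day 12 at 7.35 and 9.76 TPM. The day 1 change of 1.25 ± 0.32 on the log2 scale was the largest of the 9 factors on that day and did not pass (adjusted p = 0.138), although the libraries of the 2 days did not overlap. By days 4 to 6 it rose by 3.03-fold (log2 fold change 1.60 ± 0.28, adjusted p = 0.00197). In normalized CPM it was at 61.9 and 67.1 on day 8 and at 62.3 and 72.3 on day 12. Its annotated span overlaps LOC100128882, LOC107984890 and MIR5189. The study names a stranded library kit, but whether reads were counted by strand is not given in the sources used here. Its paralog ZFPM2 was at 2.33 and 0.556 TPM on day 0 and at 0.239 and 0.0582 TPM on day 8.

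TAL1 (gene 6886, chr1:47216290-47232389) stood at 80.6 and 63.2 TPM on day 0, at 138 and 170 TPM on day 8 and at 105 and 133 TPM on day 12. In normalized CPM the same libraries held 148 and 123, 355 and 558, and 1024 and 1009. It rose by 3.36-fold from day 0 to day 8 (log2 fold change 1.75 ± 0.20, adjusted p = 3.51e-05), and it rose by 1.16 ± 0.20 on the log2 scale from day 8 to day 12 (adjusted p = 2.30e-04) on the TMM scale, where limma on log2(TPM + 1) gave -0.37. Most of its counts lay on transcripts that RefSeq predicts and has not curated. With curated transcripts alone none of its 4 calls passed, at 0.38 from day 0 to days 4 to 6 (adjusted p = 0.588), 0.53 from there to day 8 (adjusted p = 0.316), 0.91 from day 0 to day 8 (adjusted p = 0.130) and 1.02 from day 8 to day 12 (adjusted p = 0.0614). Its paralog LYL1, a progenitor factor that can join the same complex, stood at 163 and 259 TPM on day 0, at 168 and 227 TPM on day 8, and at 216 and 221 TPM on day 12. LYL1 was above TAL1 in all of these libraries, and TAL2 was at or near 0.

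LMO2 and LDB1, the bridge and the adaptor of the TAL1 complex, were the only members of the 9 that did not pass from day 0 to day 8. LMO2 (gene 4005, chr11:33858576-33892076) stood at 230 and 243 TPM on day 0, at 280 and 356 TPM on day 1, its highest day, at 235 and 139 TPM on day 8 and at 9.35 and 12.7 TPM on day 12. In normalized CPM it was at 258 and 184 on day 8 and at 36.9 and 36.7 on day 12, a fall of 2.58 on the log2 scale (SE 0.20, adjusted p = 1.49e-07), or 6.00-fold. All day 12 libraries lay below all day 8 libraries on both scales. With only curated transcripts the difference was -0.12 (adjusted p = 0.916). Most counts of LMO2 lay on predicted transcripts, and its reads were divided among 11 transcripts that share sequence.

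LDB1 (gene 8861, chr10:102102100-102120368) stood at 213 and 228 TPM on day 0, at 268 and 232 TPM on day 4, at 201 and 125 TPM on day 8 and at 27.0 and 33.4 TPM on day 12. Between days 8 and 12 it fell by 0.99 on the log2 scale (SE 0.17, adjusted p = 1.62e-04), from 378 and 278 to 166 and 164 normalized CPM. LMO2 and LDB1 were thus lower on day 12 than on day 8 while TAL1, in the same normalized units, was higher. Between days 0 and 8 the changes of LMO2 (0.23 ± 0.19, adjusted p = 0.355) and LDB1 (0.14 ± 0.16, adjusted p = 0.522) did not pass, and in each the 2 library sets went opposite ways. The paralog LDB2 was at 0 counts in every library, which allows up to 3 counts or 0.0426 to 0.0575 CPM, a limit for counting error only.

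Other proteins known to work with these factors were followed as a list of 26 partners, chosen with earlier results of these data known. By day 8, 10 rose and 4 fell against day 0, and from day 8 to day 12, 13 rose and 12 fell, where 37.1% and 57.2% of all genes passed. The median log2 fold change in the latter step was 0.25 over the list against -0.20 over all genes. On the log2(TPM + 1) scale it was -1.05 against -0.68, where the added 1 shrinks changes of genes with low TPM. The places of this list and of the later lists among all genes are therefore not read from that scale. SSBP2 and SSBP3, which stabilize LDB1, rose by day 8 (1.97 ± 0.43 and 1.90 ± 0.24 on the log2 scale, adjusted p = 0.00307 and 5.76e-05). TCF3, the E-protein partner of TAL1, rose by 0.62 ± 0.16 by day 8 on the TMM scale (adjusted p = 0.00802). In that step the log2 ratio of GATA1 was 0.60 higher in normalized CPM than in TPM, about the size of this rise. TCF3 stood at 191 and 225 TPM on day 0 and at 97.7 and 108 TPM on day 12. The corepressor CBFA2T3 (ETO2) stood at 19.0 and 24.0 TPM on day 0 and at 0.848 and 2.42 TPM on day 12, and fell from day 8 to day 12 by 1.34 (SE 0.27, adjusted p = 8.19e-04). RUNX1 fell in the same step by 3.34 (SE 0.30, adjusted p = 5.00e-07), to 0.342 and 0.487 TPM. CBFB, the partner of RUNX1, stood at 47.2 and 46.1 TPM on day 0 and at 0.658 and 1.46 TPM on day 8, a fall of 4.79 on the log2 scale (SE 0.43, adjusted p = 4.63e-06), the largest of the 26.

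KLF1 (gene 10661, chr19:12884422-12887201) is represented by a single transcript. It stood at 461 and 515 TPM on day 0, at 785 and 897 TPM on day 7, its highest day in both sets, at 704 and 848 TPM on day 8 and at 486 and 625 TPM on day 12. Day 0 was its lowest day in both sets. In normalized CPM it went from 292 and 344 on day 0 to 629 and 918 on day 8 and 1497 and 1459 on day 12. It rose by 2.43-fold from day 0 to day 8 (log2 fold change 1.28 ± 0.18, adjusted p = 1.18e-04). Between days 8 and 12 it rose by 0.93 ± 0.17 (adjusted p = 4.19e-04) on the TMM scale, where limma on log2(TPM + 1) gave -0.49.

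Among the other KLF genes, KLF3, a repressor whose promoter KLF1 drives, stood at 54.9 and 48.9 TPM on day 0, at 127 and 139 TPM on day 8 and at 114 and 147 TPM on day 12. KLF3 rose by 1.96 ± 0.16 on the log2 scale to day 8 (adjusted p = 2.15e-06). KLF13 rose by 1.94 ± 0.19 to day 8 (adjusted p = 1.13e-05) and fell by 1.13 from day 8 to day 12 (SE 0.19, adjusted p = 1.75e-04). Over the list of 29 paralogs of the 9 factors, 24 could be tested. By day 8, 8 rose and 2 fell against day 0, and from day 8 to day 12, 10 rose and 5 fell, shares close to the 37.1% and 57.2% of all genes that passed. The median over the list in the latter step was 1.07 against -0.20 over all genes, and -0.02 against -0.68 on the log2(TPM + 1) scale.

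NFE2 (gene 4778, chr12:54292107-54301037) stood at 170 and 231 TPM on day 0, at 328 and 447 TPM on day 8 and at 417 and 387 TPM on day 12. The separate-days library was above the all-days library on every day up to day 8 and below it on day 12. In normalized CPM it was at 112 and 161 on day 0, at 308 and 505 on day 8 and at 1345 and 946 on day 12. It rose by 2.98-fold from day 0 to day 8 (log2 fold change 1.58 ± 0.33, adjusted p = 0.00232) and by 1.50 ± 0.33 from day 8 to day 12 (adjusted p = 0.00142), where limma on log2(TPM + 1) gave 0.07 and did not pass (adjusted p = 0.852). Its small MAF partner MAFG rose with it, by 2.08 ± 0.21 to day 8 (adjusted p = 1.02e-05) and by 1.67 ± 0.20 from day 8 to day 12 (adjusted p = 8.97e-06). MAFK stood at 7.85 and 9.41 TPM on day 0, at 6.44 and 7.83 TPM on day 8 and at 21.1 and 26.4 TPM on day 12, and rose by 3.14 ± 0.23 in the last step (adjusted p = 8.91e-08). BACH1, a repressor that competes with NFE2 for small MAF proteins, rose by 1.86 ± 0.20 to day 8 (adjusted p = 2.34e-05). The ratio of NFE2 to BACH1 in TPM was 5.50 and 9.82 on day 0, 5.77 and 6.48 on day 8, and 7.93 and 4.27 on day 12, and the 2 library sets went opposite ways from day 0 to day 8 and from day 8 to day 12.

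GFI1B (gene 8328, chr9:132945531-132991697) was second to KLF1 in mean TPM on days 0 and 8, and on day 8 its libraries overlapped those of NFE2. It stood at 392 and 345 TPM on day 0, at 500 and 391 TPM on day 8 and at 80.4 and 102 TPM on day 12. It rose by 0.88 ± 0.12 on the log2 scale from day 0 to day 8 (adjusted p = 1.06e-04), with 277 and 257 normalized CPM on day 0 against 504 and 477 on day 8, although limma on log2(TPM + 1) gave 0.27 and did not pass (adjusted p = 0.191). Between days 8 and 12 it fell by 0.83 (SE 0.12, adjusted p = 4.26e-05), to 281 and 273 normalized CPM. Its cofactor KDM1A stood at 218 and 149 TPM on day 0, at 82.1 and 41.0 TPM on day 8 and at 3.10 and 3.13 TPM on day 12. KDM1A fell by 0.99 to day 8 (SE 0.26, adjusted p = 0.00980) and by 2.75 from day 8 to day 12 (SE 0.28, adjusted p = 1.78e-06). The paralog GFI1, a factor of granulocyte and stem cells, was at 0.0428 and 0.0719 TPM on day 0. The span of GFI1B overlaps MIR548AW and RPL39P24.

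FOXO3 (gene 2309, chr6:108559825-108684774) stood at 31.1 and 20.8 TPM on day 0, at 40.5 and 54.6 TPM on day 4, at 62.3 and 68.6 TPM on day 6, at 92.0 and 103 TPM on day 7, at 86.3 and 123 TPM on day 8 and at 202 and 354 TPM on day 12. Day 0 was the lowest and day 12 the highest day in both sets, with ratios of 6.51 and 17.0 between them. In normalized CPM it went from 92.3 and 69.0 on day 0 to 330 and 596 on day 8 and 2733 and 3687 on day 12. It rose by 5.74-fold from day 0 to day 8 (log2 fold change 2.52 ± 0.30, adjusted p = 3.66e-05) and by 6.93-fold from day 8 to day 12 (2.79 ± 0.30, adjusted p = 2.91e-06). It was higher on day 12 than on day 8 under every alternative run, with log2 fold changes of 1.37 to 3.27. FOXO3B, a near-identical copy, was at 3.54 and 2.48 TPM on day 0 and at 15.9 and 26.3 TPM on day 12, so reads could be split between them and both are uncertain to that extent.

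FOXO4, its paralog, stood at 17.7 and 16.6 TPM on day 0, at 31.3 and 35.9 TPM on day 8 and at 48.1 and 62.3 TPM on day 12, and rose by 1.59 ± 0.14 to day 8 (adjusted p = 4.81e-06) and by 2.15 ± 0.15 from day 8 to day 12 (adjusted p = 4.09e-08). FOXO1 was at 0.413 and 0.467 TPM on day 0 and at 3.88 and 5.48 TPM on day 12. The ratio of FOXO3 to FOXO4 in TPM was 1.76 and 1.25 on day 0, 2.76 and 3.43 on day 8, and 4.20 and 5.68 on day 12, so FOXO3 gained on FOXO4 in both sets.

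**Figure D4:**
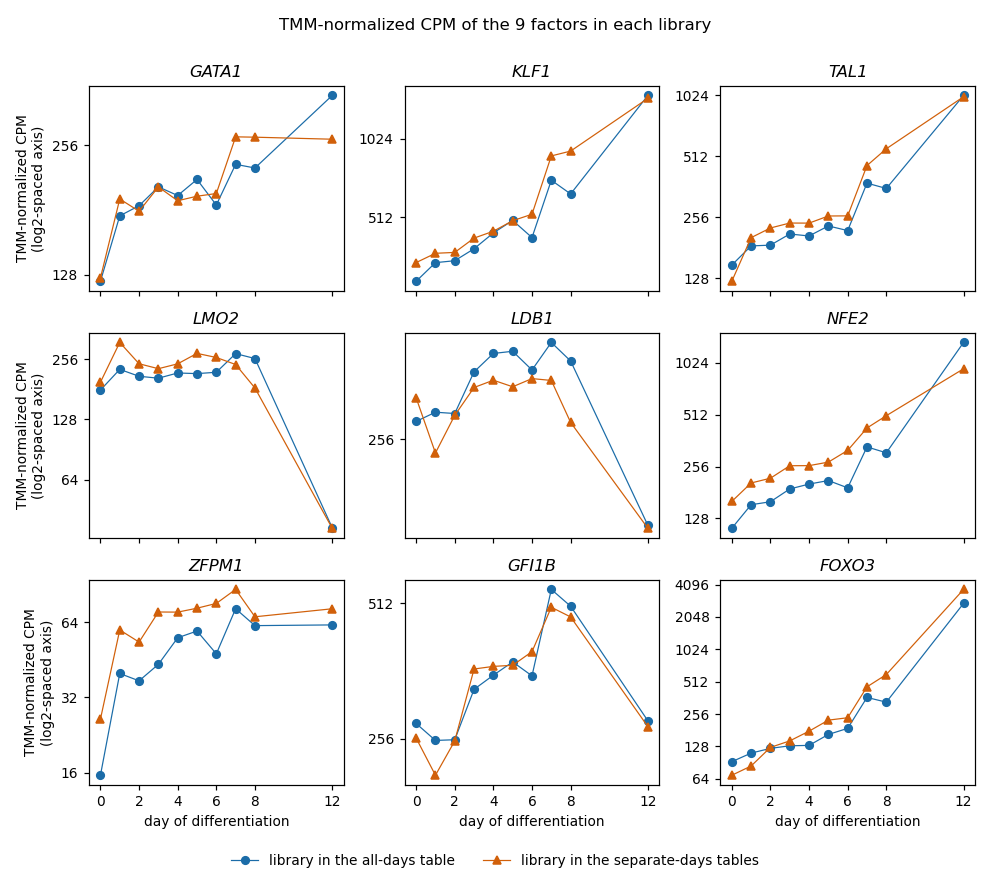
TMM-normalized CPM of each factor (y axis, log2-spaced, own range per gene) against the day of differentiation (x axis), with 1 point per library and symbols as in the plot of TPM. FOXO3 climbs to 2733 and 3687 on day 12 and LMO2 drops to 36.9 and 36.7; the day 12 means of GATA1, KLF1, TAL1 and ZFPM1 lie above their day 8 means here and below them in TPM.

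Genes known to be activated by these factors, globin, heme, membrane and cytoskeleton genes among them, were followed as a list of 34. Like the lists of partners, paralogs, repressed genes and FOXO3 targets, it was chosen with earlier results of these data known. Its counts are thus a description and no independent test. By days 4 to 6, 27 of the 34 rose and none fell, and from day 0 to day 8, 33 rose and none fell, where 7.38% and 17.7% of all genes were called higher, with a median log2 fold change of 1.94 against 0 over all genes. The largest among those detected on day 0 were the water channel AQP1 (7.85 ± 0.51, adjusted p = 5.72e-07), the anion exchanger SLC4A1 (7.18 ± 0.50, adjusted p = 9.00e-07), and the globin genes HBA1 (4.41 ± 0.46, adjusted p = 1.54e-05) and HBD (4.29 ± 0.34, adjusted p = 2.05e-06). AQP1 stood at 1.69 and 1.49 TPM on day 0, at 262 and 229 TPM on day 8 and at 15.4 and 14.6 TPM on day 12. ICAM4, an erythroid adhesion protein, was the 1 gene that did not pass (0.37 ± 0.16, adjusted p = 0.0833). From day 8 to day 12, 19 rose and 7 fell, where 23.8% of all genes were called higher and 33.4% lower. The median was 0.86 against -0.20 over all genes, and -0.56 against -0.68 on the log2(TPM + 1) scale, where 10 of the 34 lay above 0 and 24 below. XPO7, a nuclear exporter, rose by 3.76 ± 0.19 (adjusted p = 2.07e-09), TRIM58, a ubiquitin ligase of late erythroblasts, by 3.16 ± 0.21 (adjusted p = 4.09e-08) and BCL2L1, the survival factor, by 2.79 ± 0.35 (adjusted p = 1.19e-05). UROS, an enzyme of heme synthesis, fell by 1.91 (SE 0.20, adjusted p = 2.69e-06), TFRC, the transferrin receptor, fell by 1.59 (SE 0.25, adjusted p = 8.08e-05) and AQP1 fell by 2.57 (SE 0.40, adjusted p = 8.77e-05).

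Of 13 genes known to be repressed as erythroid cells mature, 9 could be tested. By day 8, 7 fell and none rose, where 19.4% of all genes were called lower, with a median of -2.32. The intermediate filament VIM fell by 8.72 on the log2 scale (SE 0.51, adjusted p = 2.44e-07), from 1304 and 1299 TPM to 1.63 and 2.69 TPM. The myeloid factor SPI1 (PU.1), an antagonist of GATA1, fell by 5.75 (SE 0.44, adjusted p = 1.41e-06), from 23.1 and 36.0 TPM to 0.126 and 0.381 TPM. The SCF receptor KIT fell by 3.29 (SE 0.61, adjusted p = 0.00106) and MYB by 1.90 (SE 0.34, adjusted p = 8.87e-04). From day 8 to day 12, MYB, KIT and MYC fell, MYC by 3.40 (SE 0.29, adjusted p = 3.48e-07), while SPI1, LYL1 and VIM rose on the TMM scale. These are 3 lower and 3 higher of the 9 tested, where 33.4% of all genes were called lower and 23.8% higher. SPI1 was then at 0.743 and 0.840 TPM and VIM at 1.22 and 2.64 TPM, both far below day 0.

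Of 22 genes known as FOXO3 targets, 2 rose and 3 fell from day 0 to days 4 to 6, 11 rose and 2 fell from day 0 to day 8, and 18 rose and 2 fell from day 8 to day 12, where 16.6%, 37.1% and 57.2% of all genes passed. The days 4 to 6 count lay near that share. The median in the last step was 2.05 against -0.20 over all genes, and 1.03 against -0.68 on the log2(TPM + 1) scale. GABARAPL1, an autophagosome protein, stood at 4.89 and 4.39 TPM on day 0, at 14.5 and 35.7 TPM on day 8 and at 174 and 204 TPM on day 12, and rose by 4.30 ± 0.47 on the log2 scale in the last step (adjusted p = 3.38e-06). ULK1, the kinase that starts autophagy, rose by 3.02 ± 0.36 (adjusted p = 7.23e-06), PINK1, a mitochondrial kinase, by 3.83 ± 0.29 (adjusted p = 1.14e-07), MAP1LC3B by 3.38 ± 0.19 (adjusted p = 8.63e-09) and PIK3IP1, an inhibitor of PI3 kinase, by 3.93 ± 0.58 (adjusted p = 5.40e-05). BNIP3L (NIX), the receptor for mitochondrial clearance in reticulocytes, rose by 1.76 ± 0.34 (adjusted p = 5.23e-04), from 230 and 276 TPM to 232 and 427 TPM. RRAGD fell by 4.39 (SE 0.97, adjusted p = 0.00158) and BNIP3 by 0.90 (SE 0.18, adjusted p = 6.74e-04). The antioxidant genes went different ways by day 8: CAT rose by 1.50 ± 0.18 (adjusted p = 5.23e-05), GPX1 fell by 1.29 (SE 0.20, adjusted p = 2.50e-04) and PRDX1 fell by 0.86 (SE 0.15, adjusted p = 6.61e-04).

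Both libraries of the table of days 7 and 8 were then left out. Of the 9 factors, 7 in place of 6 rose to days 4 to 6 (1342 of 17498 genes called higher), 0 in place of 6 rose from there to day 8 (median log2 fold change 0.35 in place of 0.40, with 553 of 17498 genes called), 5 in place of 4 rose from day 8 to day 12 (3688 genes called higher), and 7 rose from day 0 to day 8, the number found with all libraries. To day 8, 31 of the 34 activated genes and 7 of the 22 FOXO3 targets rose, and 6 of the 9 repressed genes fell, where 1805 of 17498 genes were called higher and 1916 lower. The median of the FOXO3 targets in this step was 0.48 in place of 0.92. Of the 26 partners 6 rose and 1 fell in this step, with a median of 0.12 in place of 0.28. Of the 24 paralogs tested 6 rose and 3 fell, with a median of 0.04 in place of 0.55. From day 8 to day 12, 17 of the 22 FOXO3 targets rose, where those 3688 genes were called higher. Markers of other cells that the culture could hold also moved. The 7 granulocyte or mast cell markers summed to 557 and 1090 TPM on day 0, with TPSAB1 (tryptase) at 527 and 1009 TPM, to 16.2 and 13.3 TPM on day 8 and to 3.84 and 7.61 TPM on day 12. Of the 7, 2 were at 0 counts on day 0. The 5 megakaryocyte markers summed to 10.7 and 69.0 TPM on day 0 and to 0.140 and 0.292 TPM on day 8, nearly all of it ITGA2B, with PF4, PPBP, GP9 and VWF at or near 0. Macrophage markers summed to at most 1.52 TPM and lymphocyte markers to at most 0.668 TPM on days 0, 8 and 12. The part of these cells in the changes of the 9 factors was not tested.

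Within genes, the share of TPM per start site was given as a description, since StringTie divides reads among overlapping transcripts and the division is an estimate. NFE2 has a pair of start sites. Transcripts from the downstream site (NM_006163, start at chr12:54295779) held 30.7% ± 4.48 (SD, n = 2) of NFE2 on day 0, 56.3% ± 0.252 on day 8 and 36.5% ± 5.56 on day 12. On days 2 to 6 the 2 library sets differed, at 28.0% to 34.3% in the all-days table and 41.8% to 57.7% in the separate-days tables. The 2 sites of LMO2 lie at chr11:33891108-33892076 and, nearer to the coding sequence, chr11:33869878-33871155. The nearer one held 5.24% ± 3.18 on day 0, 6.82% ± 2.82 on day 8 and 31.5% ± 8.10 on day 12, when the total of LMO2 was low. In TPM it went from 13.7 ± 9.92 on day 8 to 3.56 ± 1.63 on day 12, and the other site from 173 ± 58.2 to 7.45 ± 0.717.

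GFI1B transcripts came from the starts at chr9:132977904-132979522 in all libraries of days 0, 8 and 12, while those from the annotated sites at 132945531 and 132975022 were at or near 0. NM_001135031, a shorter form of GFI1B, held 12.6% and 10.4% on day 0, 6.60% and 4.98% on day 4, 4.91% and 4.85% on day 8, and 1.80% and 3.61% on day 12. GATA1 was 87.4%, 87.0% and 86.1% NM_002049 on days 0, 8 and 12. NM_201559 of FOXO3 ranged from 17.7% to 76.8% over libraries.

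**Figure D5:**
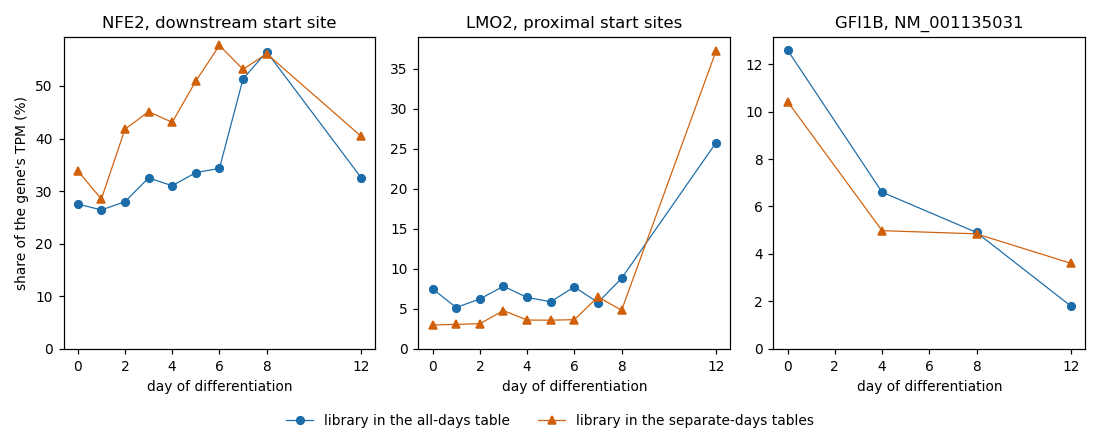
Share of the gene's TPM (y axis, %) against the day of differentiation (x axis) for transcripts from the downstream start site of NFE2, the proximal start sites of LMO2 and NM_001135031 of GFI1B (days 0, 4, 8 and 12). Each point is 1 library, circles for the all-days table and triangles for the separate-days tables; both NFE2 libraries stand at 56.5% and 56.1% on day 8, and LMO2 reaches 25.8% and 37.2% on day 12.

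Across the 20 libraries, Pearson's r of log2 normalized CPM was 0.981 between KLF1 and TAL1, 0.979 between TAL1 and FOXO3 and 0.971 between KLF1 and NFE2, and 0.823 between LMO2 and LDB1. It was -0.805 between LMO2 and FOXO3. The 20 points share 10 days and their course, so these values are a description and have no p. Among 8947 other genes, those most like TAL1 were SLC2A1 (a glucose transporter, r = 0.994), KLF3 (0.988) and PDZK1IP1 (0.988), which lies at chr1:47183582-47190036 beside TAL1. For KLF1 they were SLC1A5 (0.992), SMIM5 (0.992) and ATG4D (0.990), for GATA1 ACSF3 (0.968), FAM3A (0.954) and UCP2 (0.952), and for NFE2 SHARPIN (0.991), FAM50A (0.990) and OTUD5 (0.988). FOXO3 was most like NR3C1, the glucocorticoid receptor (0.995), TBC1D22B (0.993) and GPCPD1 (0.992). GFI1B was most like SNX22 (0.966), DPF3 (0.952) and CROCCP2 (0.947), ZFPM1 like FLOT1 (0.925), SMPD1 (0.921) and TPM1 (0.918), and LDB1 like VPS52 (0.966), RIPOR1 (0.958) and APOL1 (0.958). LMO2 was most like PLRG1 (0.989), CENPS (0.987) and the mitotic kinase PLK1 (0.987). Over the 18 libraries of days 0 to 8 these 3 were at 0.775, 0.791 and 0.755, so their likeness to LMO2 was weaker without day 12. The closest gene of each other factor had an r of 0.912 or more there.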

How the data were processed

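RNA-seq of HUDEP-2 cells on 10 days, with 2 libraries a day, was analysed from the tables the authors deposited. Per the submitters' processing notes the reads were handled with Trimmomatic 0.38, HISAT2 2.1.0 (hg38) and StringTie 2.1.3b. The authors deposited counts per RefSeq transcript as whole numbers without normalization, and TPM, scaled by the authors for transcript length and library total. FPKM and another set of day 0 columns were not used here (23 value columns). The study names a stranded library kit (TruSeq Stranded mRNA). The strand setting used in counting and the way shared reads were divided are not given in the sources used here. Columns name a day and no replicate. Counts and TPM were summed by gene symbol. edgeR 4.0.16 was run on the counts (filterByExpr by day, TMM, glmQLFit and glmQLFTest, all 20 libraries, 1 coefficient a day, Benjamini-Hochberg over 16784 genes, threshold 0.05), where the study names edgeR's exact test. SE is the absolute log2 fold change over the square root of F. Day 4 to 6 contrasts use the mean of 3 coefficients. Start sites within 2000 bases were joined. Likeness is Pearson's r of log2 normalized CPM over the 20 libraries, among genes with an average log2 CPM of at least 3, and the 3 closest are named. From each list the genes named have the largest changes (up to 6) or are a partner, paralog or antagonist of a factor. BNIP3, BNIP3L, CAT, GPX1, ICAM4, MAP1LC3B, PRDX1, TFRC and UROS lie outside this rule and were chosen after their values were seen. 1 gene of the marker lists is not reported here. The factors and lists were chosen with earlier results of these data known, so no p adjusted over a list is given. On simulated day 8 and day 0 counts of 15633 genes, 200 of them changed, edgeR recovered 100% of 4-fold and 39% of 2-fold changes with 6.71% of its calls false, limma 3.58.1 100% and 38%, and DESeq2 1.42.0 100% and 53% with 20.7% false. Alternatives were DESeq2, limma on log2(TPM + 1) and log2(TPM + 0.1), upper-quartile scaling, TMM without globin or ribosomal RNA genes, other filters, only the days compared, the exact test, a term for the table set, curated transcripts alone and each library left out. Leaving out both libraries of the table of days 7 and 8 was chosen after seeing the data. Totals per library were 52131713 to 70358198 counts.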

Additional observations from a re-analysis of the deposited data

Results flagged for a closer look

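In 6 cases the all-days and the separate-days libraries moved in opposite directions, which was not tested as a difference because each set has 1 library a day (log2 fold changes of single libraries, all-days first). LDB1 moved by 0.067 and -0.40 from day 0 to day 1, and by 0.44 and -0.18 from day 0 to day 8. LMO2 moved by 0.24 and -0.49 from days 4 to 6 to day 8, and by 0.52 and -0.10 from day 0 to day 8. ZFPM1 moved by 0.20 and -0.12 from days 4 to 6 to day 8. GATA1 moved by 0.56 and -0.016 from day 8 to day 12. None of these 6 changes passed the test over both sets. In 5 of the 6 the separate-days value involves the day 8 library with 17.5% ribosomal RNA, whose part was not tested. No group had the 4 libraries that a test for a single outlying library needs.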

How the results depend on the processing

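No paired analysis was possible by replicate number, because the columns carry no replicate numbers. The libraries could be matched by table set, and a term for the table set, with 1 library a day in each set, served as a block. Its counts are given below for day 1 against day 0, days 4 to 6 against day 0 and day 8 against days 4 to 6. For day 12 against day 8 and day 8 against day 0, 42.8% and 46.8% of its calls were higher. Direction depended most on the scale. With limma on log2(TPM + 1) and on log2(TPM + 0.1), the day 12 against day 8 values were -1.17 and -1.17 for GATA1, -0.49 and -0.49 for KLF1, -0.37 and -0.38 for TAL1, and -1.18 and -1.27 for ZFPM1, and those of day 8 against days 4 to 6 were -0.12 and -0.12 for GATA1 and -0.048 and -0.048 for GFI1B. As ratios of level, KLF1, TAL1, GATA1 and ZFPM1 turned from below 0 in TPM to 0.96, 1.19, 0.27 and 0.06 in normalized CPM for day 12 against day 8, and LMO2 and LDB1 to 0.21 and 0.13 for day 8 against day 0. Genes called from day 0 to day 1 were 437 with DESeq2, 299 and 157 with limma, 0 with only the days compared, 253 with the exact test, 442 with a table-set term and 38 with curated transcripts, in place of 66. Factors called there were 2 with DESeq2, 1 and 1 with limma, 1 with the exact test and 2 with a table-set term, in place of 0. For days 4 to 6 against day 0, 4809 genes were called with a table-set term and 1531 with curated transcripts. From days 4 to 6 to day 8 the counts were 5908 and 5872 with limma, 2418 with only the days compared, 6104 with a table-set term, 2201 (3 factors) with curated transcripts and 553 (0 factors) without the table of days 7 and 8. From day 0 to day 8 they were 3726, 4023 and 3721 with only the days compared, with curated transcripts and without that table. With each library left out in turn, genes called ranged from 7 to 113 (factors 0 to 1) from day 0 to day 1, from 959 to 3061 (2 to 7) to days 4 to 6, from 464 to 4096 (0 to 6) from there to day 8, from 7982 to 9591 (7 to 8) from day 8 to day 12, and from 3568 to 6484 (7 to 7) from day 0 to day 8. The lowest counts came without a separate-days library, of day 0 in the first 2 and of day 8 in the third and the last, and 1495 genes were called to days 4 to 6 without the all-days library of day 0. The causes were not tested. Of the values of single factors recomputed under alternatives, 1364 were counted as unchanged, 67 lost the call and 29 gained it. A tested value was unchanged if it kept its side of the threshold. The 1364 include start-site shares of NFE2 and LMO2, which have no threshold, and values that crossed 0 without passing. With limma on log2(TPM + 1), LMO2 (-0.38) and LDB1 (-0.47) did so for day 8 against day 0. A further 14 reversed, among them the ratios of level of KLF1 and TAL1 for day 12 against day 8. The other 16 ratios of level moved, 4 of them across 0. With 2 libraries a day, edgeR recovered 39% of the simulated 2-fold changes, so such changes can be missed. The simulated spread was set (squared coefficient of variation of 0.04) and not estimated from these data, and smaller changes were not simulated.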
